A study of Mus with 2 samples.

Results

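Enteroendocrine cells are the hormone-secreting cells of the intestinal epithelium, and 2 deposited tables describe them here. The first is the authors' sheet of fold changes and detection shares for this cell type, with 5287 genes. The second is their table of cluster markers, of which the 311 rows of cluster 6 were taken. All 311 cluster 6 genes also stood in the enteroendocrine sheet, so the members were 5287 distinct genes of 8995 in the whole series. The cells were sorted from the epithelium of the mouse distal ileum at baseline and profiled by inDrops, in which droplets give the RNA of each cell its own barcode. The nociceptor-ablated sample had the genotype Nav1.8Cre+/-DTA+/-, in which Cre made in Nav1.8-expressing sensory neurons switches on diphtheria toxin A and removes those neurons. The control sample came from littermates of the genotype Nav1.8Cre-/-DTA+/-, which carry the same toxin allele without Cre. Each genotype had 1 sample, pooled from 3 mice, and the deposited library sheet describes the mice as males of 8 weeks. With 1 sample per genotype there was no replicate and no test, so every difference below is a description of these samples. The sheets do not state which genotype is the first group of cells and which is the second. They are called group 1 and group 2, and no direction of nociceptor loss can be read from them.

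Enteroendocrine cells are scattered singly among absorptive cells and release peptides or serotonin from dense-core granules when nutrients, microbial products or stretch act on them. Subtypes are known by their main product: L cells make proglucagon and peptide YY, N cells neurotensin, I cells cholecystokinin, S cells secretin, K cells GIP, X cells ghrelin, and enterochromaffin cells serotonin. In the distal ileum L cells and enterochromaffin cells are well known, and a single cell often makes more than 1 hormone. The prohormones are sorted into granules by granins, cut by prohormone convertases, trimmed by carboxypeptidase E and often amidated before release.

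Cluster 6 was led by hormone genes. Proglucagon, Gcg (chromosome 2, 62474530 to 62483653, mm10, as are the positions that follow), was first in the authors' deposited table, at a log2 fold change of 5.24 over all other cells. The other identity markers followed it in that authors' deposited table: Pyy (chromosome 11, 102106676 to 102107832) at 5.13, secretin, Sct (chromosome 7, 141278329 to 141279174), at 4.97, the granin Chgb (chromosome 2, 132781642 to 132795079) at 4.34 and cholecystokinin, Cck (chromosome 9, 121489824 to 121495694), at 4.09. All of these genes are annotated as protein-coding. The 5 identity markers are the 5 leading genes of this same cluster, so they are no separate check of its identity. Since the cluster was formed from the same cells, its difference from the others is a description and not a result. Chromogranin A, Chga (3.64), neurotensin, Nts (3.52), and the tachykinin gene Tac1 (2.13) were the only further rows at a log2 fold change of 2 or more by the authors' deposited table. In all, 8 of the 311 rows reached 2 and 23 reached 1, against a median of 0.44 and a lowest value of 0.25.

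The hormone genes did not share a single detection pattern. The authors' deposited table gave Gcg in 40.6% of cluster 6 cells and 3.3% of other cells, and Pyy in 40.6% and 4.2%. Nts was in 26.1% of cluster 6 cells against 1.9% of others, and Tac1 in 42.0% against 2.9%, by the authors' deposited table. These 4 hormone genes were therefore detected in a minority of the cluster's cells. The granins, which are general endocrine products, and the hormone gene Cck were broader: the authors' deposited table gave Chgb in 85.5% against 1.5%, Chga in 85.5% against 7.1% and Cck in 71.0% against 1.8%. Sct was broad as well, in 81.2% of cluster 6 cells, but also had the highest share in other cells of the 20 leading genes, 16.1%, in the authors' deposited table. Kcnb2, a voltage-gated potassium channel, and Ptprn2, a membrane protein of dense-core granules, were detected about as widely as the granins, in 84.1% and 81.2% of cluster 6 cells against 1.4% and 7.4% of others in the authors' deposited table.

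**Figure D1:**
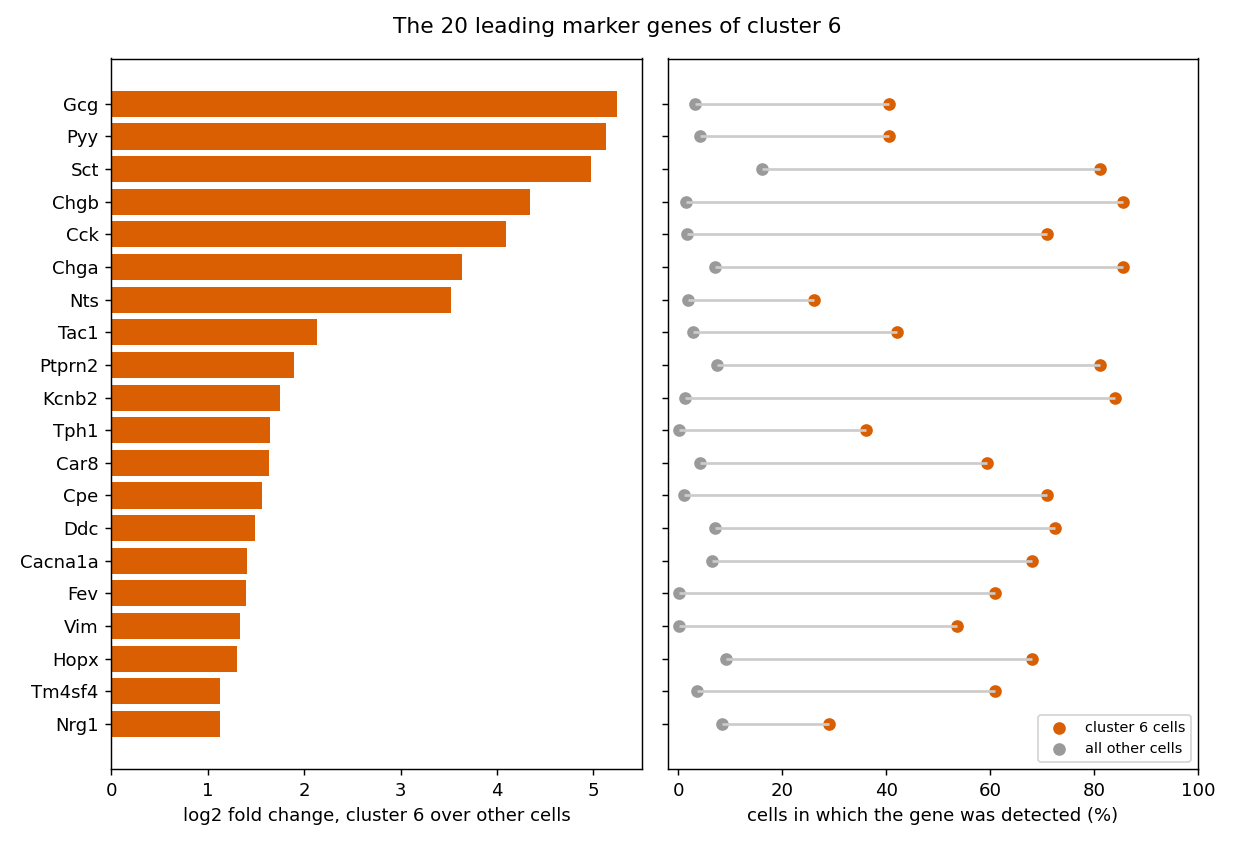
The 20 marker genes of cluster 6 with the highest log2 fold change: bars give the authors' log2 fold change over all other cells, and points give the share of cells in which each gene was detected in cluster 6 and in all other cells. Gcg leads at 5.24 with detection in 40.6% of the cluster, while Chgb, at 4.34, was detected in 85.5%.

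The rest of the machinery of an endocrine cell stood behind the hormones. Of 17 genes of the granin and hormone-processing list, 12 were cluster 6 markers, as were 7 of 18 serotonin and enterochromaffin genes, 10 of 28 endocrine transcription factors and 6 of 29 exocytosis genes. The serotonin genes included Tph1, the rate-limiting enzyme of serotonin synthesis outside the brain, detected in 36.2% of cluster 6 cells against 0.1% of others in the authors' deposited table. Ddc, which makes serotonin from 5-hydroxytryptophan, was in 72.5% against 7.2%, and the vesicle monoamine transporter gene Slc18a1 in 33.3% against 1.5%, by the authors' deposited table. Among the markers from the list of endocrine transcription factors, Fev was the broadest in the authors' deposited table, in 60.9% of cluster 6 cells and 0.1% of others. Neurod1, which drives endocrine differentiation, was in 39.1% against a rounded share of 0.0%, Isl1 in 27.5% against 0.1%, Nkx2-2 in 26.1% against 0.1% and Rfx6 in 29.0% against 1.4% in the authors' deposited table. Apart from Fev, these factors were thus detected in a minority of the cluster and almost nowhere else. The convertase gene Pcsk1 (55.1% against 1.1%), its inhibitor Pcsk1n (49.3% against 0.2%) and carboxypeptidase E, Cpe (71.0% against 1.2%), were broader and nearly as rare in other cells in the authors' deposited table. Both nutrient receptor genes among the markers bind fatty acids: Ffar1, for long chains, was in 29.0% against 0.1% and Ffar2, for short chains, in 34.8% against 1.5% in the authors' deposited table.

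Not every marker row was particular to this cluster. Of the 311 genes, 191 (61.4%) were listed for cluster 6 alone and 120 also for another cluster: 77 of them for cluster 2, which was led by Ptma, Olfm4 and ribosomal protein genes, 45 for cluster 4, led by the goblet genes Tff3 and Zg16, and 43 for cluster 7, which held the tuft genes Dclk1 and Rgs13. The shared rows included 17 ribosomal protein genes, and 29 rows in all were detected in under 1% of the other cells. Markers of other cell types were few: 2 of 21 goblet genes (Ceacam10 and Tspan13), 1 of 17 tuft genes (the keratin Krt18), and 0 of 28 enterocyte, 18 Paneth, 16 stem, 24 proliferation, 21 immune and 17 stromal, neuronal and glial genes. Immediate early genes, which respond to stimulation and to tissue dissociation, had 9 of 16 members among the markers, with Fos in 81.2% of cluster 6 cells against 49.0% of others in the authors' deposited table. Fos was thus widespread outside the cluster as well.

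The cells of cluster 6 and those of the enteroendocrine sheet were not exactly the same set. If they were, the share of cluster 6 cells detecting a gene would lie between the shares of the 2 groups of the sheet. That held within 0.1 percentage points for 267 of the 311 markers. For 15 genes the cluster share was above both groups and for 29 below both, by at most 3.6 points. Vim, for example, was in 53.6% of cluster 6 cells in the authors' deposited table, against 50.0% of group 1 and 50.0% of group 2.

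A gene is listed in a cell type's sheet when at least 10% of cells detect it in at least 1 group, and the leading markers met this limit unevenly elsewhere. Whether group 1 is the same genotype in every sheet is not stated, so shares are set side by side and fold changes are not. Of the 20 leading markers, 7 were listed for goblet cells, 11 for tuft cells, 6 for stem cells and 3 for enterocytes. The tuft sheet was also the longer, with 6765 genes in all against 4537 in the goblet sheet. Nts, Tph1, Cpe, Fev and Vim were listed for enteroendocrine cells alone. Sct was the exception and was listed for every cell type: the authors' deposited table gave 85.3% and 72.5% of enteroendocrine cells in groups 1 and 2, 55.9% and 58.2% of goblet cells, 33.3% and 57.1% of tuft cells, 18.4% and 16.6% of enterocytes and 10.2% and 8.6% of stem cells. Its share thus differed widely between cell types. It was also a marker of cluster 4, in 50.2% of its cells against 13.9% of others, by the authors' deposited table. Tac1 was in 14.9% and 26.5% of goblet cells, beside 29.4% and 47.5% of enteroendocrine cells, in the authors' deposited table. Gcg and Pyy were listed outside enteroendocrine cells only for tuft cells, where group 1 had 5.6% and 0.0% and group 2 had 14.3% for either gene in the authors' deposited table. The share of 14.3% is the lowest above 0 in group 2 of the tuft sheet, whose steps are coarser still. Cck, Chgb, Kcnb2, Nrg1 and Ptprn2 were also listed for tuft cells only through this share, by the authors' deposited table. The count for tuft cells thus rests largely on that lowest share. The part of free RNA in these shares was not tested.

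**Figure D2:**
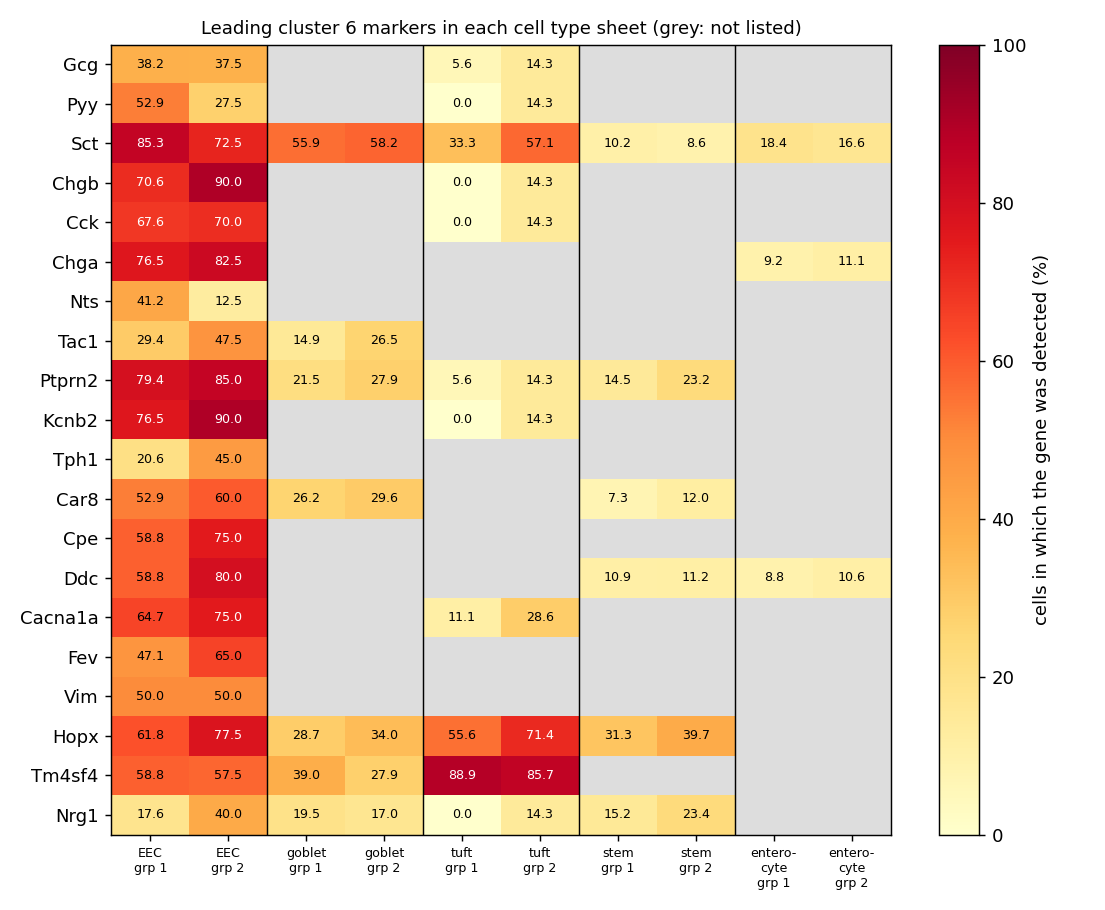
Detection share, in percent of cells, of the 20 leading cluster 6 markers in groups 1 and 2 of each of the 5 cell type sheets (EEC stands for enteroendocrine cells; grey fields are genes not listed for that cell type). Sct is detected in every cell type, from 8.6% of group 2 stem cells to 85.3% of group 1 enteroendocrine cells, while Tph1, Fev and Cpe are listed for enteroendocrine cells alone.

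Between the groups, serotonin and granin genes had lower values in group 1, beside higher values for Pyy and Sct. Fold changes in the authors' sheet are log2 ratios of group 1 over group 2. A log2 fold change of at least 0.25 in either direction is described as past the fold, which is a size and not a test. By this measure 118 of the 5287 genes (2.23%) were higher and 342 (6.47%) lower in group 1. Lower values were not limited to endocrine genes: 5 of 15 listed granin genes (33.3%) and 7 of 11 serotonin genes (63.6%) were past the fold lower, beside 7 of 19 listed enterocyte markers (36.8%). Of all cluster 6 markers 30.5% were past the fold lower, near the granin share. Measured from the median of all genes, -0.05, in place of 0, the split of the 5287 genes turned: 265 were higher and 200 lower. Detection was coarse, since few cells lay behind the sheet. Their number, and the depth of each group, are not stated in the sources used here. Shares moved in steps of about 2.9 percentage points in group 1, with 35 distinct values, and of 2.5 points in group 2, with 41. These steps were even, so 1 step can be read as 1 cell, and single-gene differences rest on few cells. For 1107 genes (20.9%) the groups differed by no more than 2.9 points, and 156 genes differed by over 20 points, of which 23 were detected more often in group 1 and 133 less often. The median share over all genes was 11.8% in group 1 and 15.0% in group 2. A difference in the mix of endocrine subtypes and a difference in RNA per cell cannot be told apart in these values.

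The peptide hormones went both ways. Of 25 hormone genes, 9 were listed, with 2 past the fold higher in group 1 and 3 lower (4 and 3 when measured from the median of all genes), and a list median of 0.17 against -0.05 for all genes. Pyy, whose product slows gut transit and reduces appetite, had shares of 52.9% in group 1 and 27.5% in group 2, and a log2 fold change of 1.62, by the authors' deposited table. Sct, which stimulates bicarbonate secretion, was in 85.3% of group 1 and 72.5% of group 2, with a log2 fold change of 1.19, by the authors' deposited table. Gcg, made with Pyy in L cells, did not share this difference: it was in 38.2% of group 1 and 37.5% of group 2, less than 1 detection step apart, with a log2 fold change of 0.17 by the authors' deposited table.

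Nts showed the widest gap in detection of all 9 hormone genes, in 41.2% of group 1 and 12.5% of group 2, yet its log2 fold change was only 0.23 in the authors' deposited table. Cck was in 67.6% of group 1 and 70% of group 2, at 0.21, in the authors' deposited table, so its share and its mean pointed in opposite directions by small amounts. Among the lower hormones, Tac1, the precursor of substance P that enterochromaffin cells also make, was in 29.4% of group 1 and 47.5% of group 2, with a log2 fold change of -0.71 by the authors' deposited table. Ghrl, which encodes ghrelin, was at -0.79 although more cells detected it in group 1, 17.6%, than in group 2, 12.5%, in the authors' deposited table. Gip, made by K cells of the upper intestine, was at -1.12 with shares of 5.9% in group 1 and 12.5% in group 2 in the authors' deposited table. Both were thus detected in few cells, and neither is a cluster 6 marker. Nucb2, the nesfatin precursor, completed the list at 0.16, with 11.8% of group 1 and 2.5% of group 2 by the authors' deposited table.

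**Figure D3:**
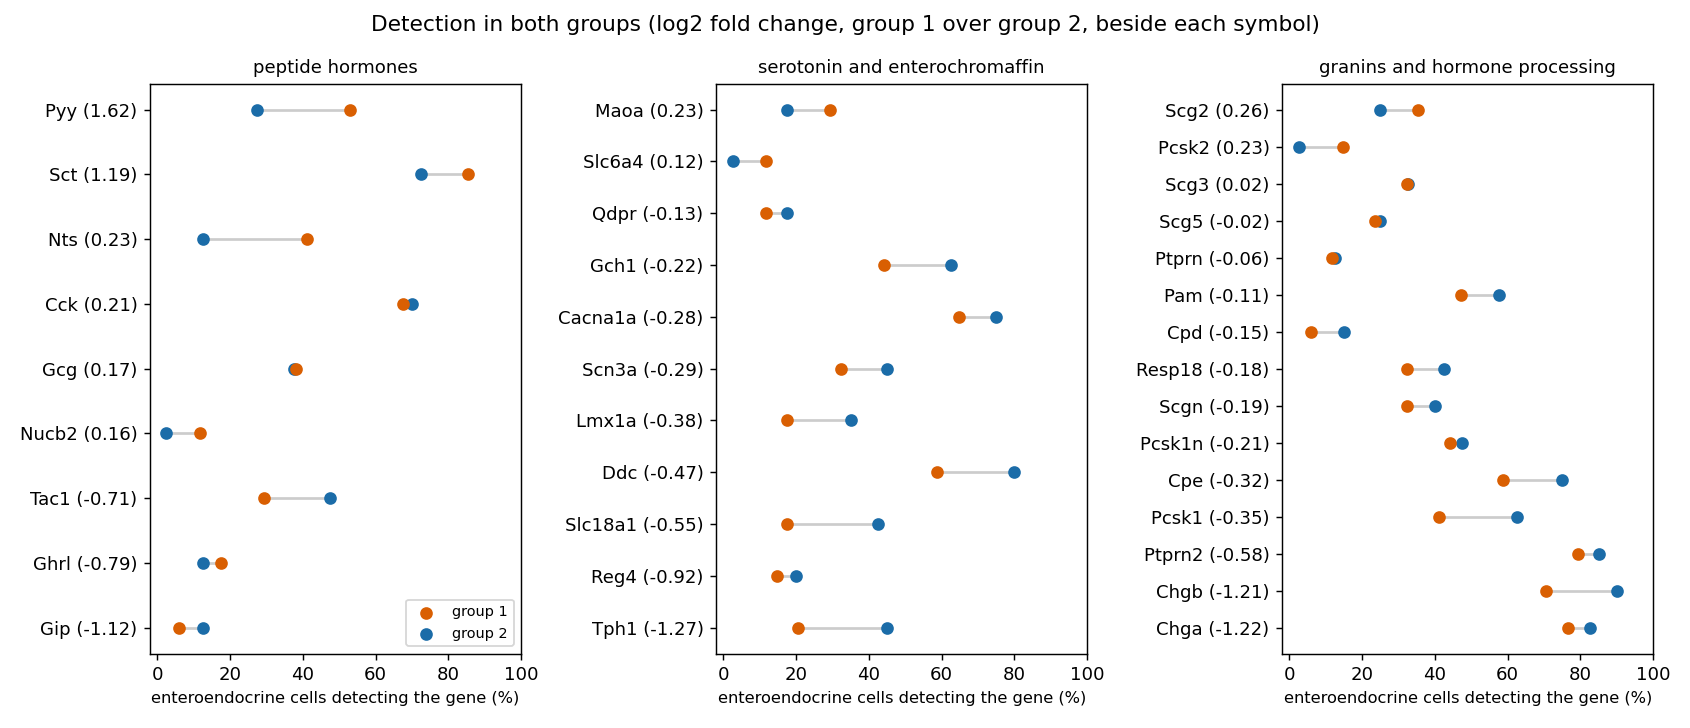
Share of enteroendocrine cells in which each listed hormone, serotonin and granule gene was detected in group 1 and in group 2, in percent, with genes ordered by the authors' log2 fold change, printed beside each symbol. Pyy, Sct and Nts lie further right in group 1, whereas Tph1, Ddc, Slc18a1, Chgb and Pcsk1 lie further left.

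Serotonin and enterochromaffin genes were mostly lower in group 1. Of 18 genes 11 were listed, 7 were past the fold lower and 0 higher, and the median was -0.29. Measured from the median of all genes, 5 were lower and 1 higher. Tph1 had the lowest log2 fold change of the whole sheet, -1.27, and shares of 20.6% in group 1 and 45.0% in group 2 by the authors' deposited table. The next steps of the pathway shared the direction: the authors' deposited table gave Ddc in 58.8% of group 1 and 80% of group 2 (-0.47), and Slc18a1, which loads serotonin into granules, in 17.6% and 42.5% (-0.55). Lmx1a, a transcription factor needed for serotonin synthesis in these cells, was in 17.6% of group 1 and 35% of group 2, at -0.38, in the authors' deposited table. Synthesis, loading and transcriptional control thus lay on the same side.

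Gch1, which starts synthesis of the cofactor that Tph1 requires, was at -0.22 with 44.1% of group 1 and 62.5% of group 2, and Qdpr, which recycles that cofactor, at -0.13 with 11.8% and 17.5%, in the authors' deposited table; neither was past the fold. The calcium channel gene Cacna1a (-0.28, 64.7% and 75.0%) and the sodium channel gene Scn3a (-0.29, 32.4% and 45.0%), both linked to the electrical excitability of enterochromaffin cells, were just past it in the authors' deposited table. Reg4, a lectin-like secreted protein, was at -0.92 with 14.7% of group 1 and 20% of group 2 by the authors' deposited table. The genes on the other side act on serotonin after release: Maoa, which degrades it, was at 0.23 with 29.4% and 17.5%, and Slc6a4, which takes it up, at 0.12 with 11.8% and 2.5%, in the authors' deposited table. Maoa was detected in 43.2% and 41.1% of enterocytes and Slc6a4 in 10.5% and 10.8% of them in the authors' deposited table, so neither was restricted to endocrine cells.

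Granins and hormone-processing genes were lower in group 1 for the most widely detected members, with smaller differences for the rest. Of 17 genes 15 were listed, with 5 past the fold lower (33.3%) and 1 higher (5 and 2 from the median of all genes), and a median of -0.18. Of these genes 12 mark cluster 6, and 30.5% of all cluster 6 markers were lower. The granin share was near that of the markers. Chga (chromosome 12, 102554941 to 102565027) and Chgb stood next to Tph1 among the lowest log2 fold changes of the sheet, at -1.22 and -1.21 by the authors' deposited table. By that authors' deposited table, Chga was in 76.5% of group 1 and 82.5% of group 2, and Chgb in 70.6% and 90.0%. The share of Chga thus differed little beside its fold change. Ptprn2 (-0.58), Pcsk1 (-0.35) and Cpe (-0.32) were the other low members in the authors' deposited table, and Pcsk1 had the widest gap of these in detection, with 41.2% of group 1 and 62.5% of group 2. Secretogranin II, Scg2, was the high member, at 0.26 with 35.3% of group 1 and 25.0% of group 2 by the authors' deposited table. The second convertase gene, Pcsk2, went the same way below the threshold, at 0.23 with 14.7% and 2.5%, in the authors' deposited table. Its 2.5% in group 2 is 1 detection step. Pcsk2 was listed for every cell type, with 18.4% and 21.7% of enterocytes and 20.4% and 30.8% of stem cells, so it was not restricted to endocrine cells. Scg3 (0.02), Scg5 (-0.02) and Ptprn (-0.06) were nearly level in the authors' deposited table. Between the level and the low members lay Pam, which amidates peptides (-0.11), Cpd (-0.15), Resp18 (-0.18), the calcium sensor gene Scgn (-0.19) and Pcsk1n (-0.21), all detected less often in group 1 in the authors' deposited table.

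Of 29 genes of regulated exocytosis, 23 were listed, 3 were past the fold lower (13%) and 0 higher, with a median of -0.09. That share was near the 10.8% of other genes with at least 20% mean detection that do not mark cluster 6. The low members were Rab3c (-0.86, 20.6% of group 1 and 42.5% of group 2), Rab3d (-0.37, 29.4% and 47.5%), small GTPases of secretory granules, and Rph3al (-0.28, 50.0% and 60.0%), an effector of such GTPases, in the authors' deposited table. The core fusion gene Vamp8 stood on the other side at 0.18, with 32.4% of group 1 and 27.5% of group 2, by the authors' deposited table. Stx1a, a target-membrane syntaxin, was at 0 in group 1 but in 17.5% of group 2 by the authors' deposited table.

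Among endocrine transcription factors, 20 of 28 were listed, 4 were past the fold lower (20%) and 0 higher (4 and 1 from the median of all genes), with a median of -0.11. Those 4 were Fev (-0.64, 47.1% of group 1 and 65% of group 2), the corepressor gene Runx1t1 (-0.59, 17.6% and 47.5%), Lmx1a and the ciliary factor Rfx3 (-0.36, 20.6% and 40%) in the authors' deposited table. Lmx1a also stood in the serotonin list, and Fev in a list of general enteroendocrine markers. All 4 low factors mark cluster 6, and 30.5% of all cluster 6 markers were lower, a larger share than in this list. Among other genes with at least 20% mean detection 10.8% were lower. Several other endocrine factors were closer to level in mean: the authors' deposited table gave Neurod1 0.01, Nkx2-2 -0.06, Isl1 -0.03, Insm1 -0.15, Rfx6 -0.16 and Pax6 -0.25, the last of these just short of the fold. Etv1 was at 0.23 with shares of 23.5% in group 1 and 22.5% in group 2, in the authors' deposited table. Foxa2 was in 11.8% of group 1 and listed at 0 in group 2, while Foxa1 was at -0.20 with 8.8% and 25.0%, in the authors' deposited table. Further listed factors, St18 (0.06), Sox4 (0.00), Peg3 (-0.02), Myt1 (-0.07), Mlxipl (-0.21) and Tox3 (-0.23), were not past the fold in the authors' deposited table.

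Receptors for luminal nutrients were sparse. Of 19 genes 6 were listed and 1, Ffar2, was past the fold, at -0.44 with 29.4% of group 1 and 45.0% of group 2 by the authors' deposited table. Its long-chain relative Ffar1 was at 0.11 with 32.4% and 25.0%, the lipid receptor gene Gpr119 at -0.09 with 11.8% and 20%, and Ffar4 at -0.13 with 2.9% and 10.0%, in the authors' deposited table. The transporters Slc15a1 (0.17) and Slc5a1 (-0.06), which carry peptides and glucose and are also used by absorptive cells, were near level in the authors' deposited table. Of 18 channel genes 8 were listed, with Cacna1a and Scn3a past the fold and 0 higher; from the median of all genes neither passed.

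Because the study removes neurons that release the peptide CGRP, a list of its receptor and cyclic AMP signalling genes was described separately. No gene of the receptor itself was listed in the sheet, so the counts concern G protein and cyclic AMP signalling alone. Of 17 genes 11 were listed, with 6 past the fold lower (54.5%), 0 higher and a median of -0.25. Measured from the median of all genes, 4 were lower. Beside this, 6.47% of all genes and 30.5% of cluster 6 markers were past the fold lower. Of the listed genes not past it, Creb1 (0.13), Adcy9 (0.1) and Adcy6 (0.09) were above 0. Gnb1 (-0.15) and Prkacb (-0.16) were below 0 in the authors' deposited table. The low members were Rgs2 (-0.67, 26.5% of group 1 and 35% of group 2), the stimulatory G protein gene Gnas (-0.46, 41.2% and 65%), the inhibitory Gnai2 (-0.37, 38.2% and 60.0%), Pde4d (-0.31), Prkar1a (-0.30) and Pde10a (-0.25) in the authors' deposited table. Of these, Gnas, Gnai2, Rgs2, Pde4d and Prkar1a were themselves cluster 6 markers, and they count among the markers described next.

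Genes that mark cluster 6 were lower in group 1 in a larger share than other genes. Of the 311 markers, 95 (30.5%) were past the fold lower in group 1, and 16 (5.14%) higher, with a median of -0.12. All of them had a mean detection of at least 20% over both groups. Among the other 1291 genes at that level, 10.8% were lower and 5.11% higher, with a median of -0.05 (8.83% higher and 6.97% lower from the median of all genes). The share of high values in the markers lay near this background and the share of low values above it. Marker rows were chosen over the cells of both groups together, so a gene may have passed mainly through the group where it was high. The part of this selection in the gap was not tested. From the median of all genes, 6.75% of markers were higher and 23.8% lower. Of the 20 leading markers 13 were lower and 2 higher, Pyy and Sct (11 and 4 from the median of all genes). Of the 39 listed genes of a 41-gene list of general enteroendocrine markers 11 were lower, Bex3 at -0.56 in the authors' deposited table among them, and 0 higher, with a median of -0.15. The 191 genes that mark cluster 6 alone had 67 lower (35.1%), and the 120 shared with other clusters had 28 lower (23.3%). The gap to other genes also depended on detection: between 20% and 40% mean detection, 29.2% of 168 markers and 10.1% of 984 other genes were lower, between 40% and 70% it was 35.7% of 112 and 11.7% of 239, and from 70% upward 19.4% of 31 and 17.6% of 68. Ribosomal protein genes went the other way: of the 17 among the markers 5 were higher and 0 lower.

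**Figure D4:**
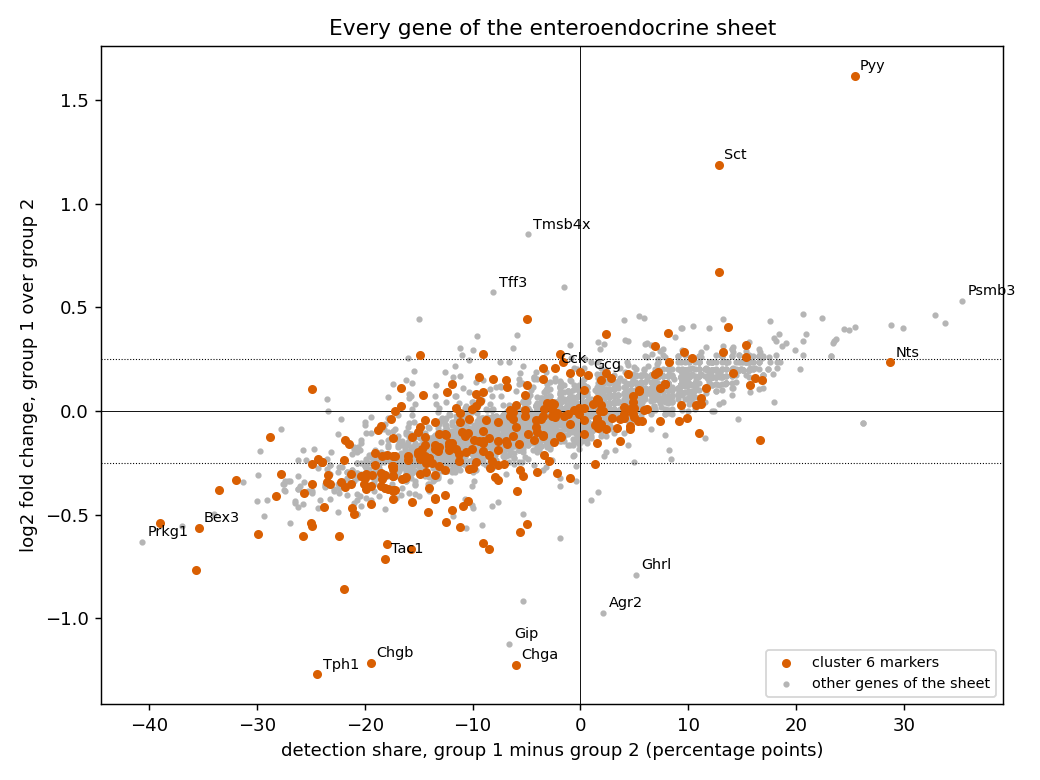
Each point is a gene of the enteroendocrine sheet, placed by its detection share in group 1 minus that in group 2 (percentage points) and by the authors' log2 fold change, with dotted lines at 0.25 and -0.25. Cluster 6 markers (larger points) lie below the lower line in 95 of 311 cases and above the upper line in 16, and Ghrl, Agr2, Tmsb4x and Tff3 lie where the fold change and the detection difference have opposite signs.

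The widest gaps in detection belonged to genes that were also past the fold. The largest gaps toward group 2 were those of Prkg1, a cyclic GMP-dependent kinase (29.4% of group 1 and 70% of group 2), Marcksl1 (23.5% and 62.5%), Mlf2 (20.6% and 57.5%), the adhesion molecule Ceacam10 (29.4% and 65%) and Bex3 (47.1% and 82.5%), with log2 fold changes between -0.54 and -0.77 in the authors' deposited table. Toward group 1 they were those of the proteasome subunit Psmb3 (52.9% and 17.5%), the respiratory chain gene Cyc1 (58.8% and 25.0%), Rec114 (52.9% and 20%), Tmed8 (32.4% and 2.5%) and Il1rapl1 (58.8% and 30.0%), between 0.40 and 0.53 in the authors' deposited table. Kcnb2, the channel gene detected almost throughout cluster 6, was at -0.42 with 76.5% of group 1 and 90.0% of group 2 by the authors' deposited table. The remaining leading markers Hopx (-0.66), Nrg1 (-0.60), Car8 (-0.25) and Tm4sf4 (-0.07) were also under 0, while Vim was at 0.19 with equal detection, in the authors' deposited table.

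Fold change and detection did not always go together. Of the 460 genes past the fold, 22 had a detection difference of the opposite sign, and ribosomal protein genes were frequent among them. Agr2, a goblet cell disulfide isomerase, was at -0.97 although detected in 47.1% of group 1 and 45.0% of group 2, and Tff3, a goblet peptide, was at 0.57 with 79.4% and 87.5%, in the authors' deposited table. Tmsb4x, an actin-binding peptide, was at 0.85 with 67.6% of group 1 and 72.5% of group 2, and Lypd8 at 0.60 with 73.5% and 75.0%, in the authors' deposited table. For such genes the direction depends on which of the 2 measures is read. Other genes among the 12 highest were Myl7, a myosin light chain (0.67, 35.3% of group 1 and 22.5% of group 2), the adaptor gene Ywhaz (0.45, 55.9% and 50.0%), Cacybp (0.45, 32.4% and 10.0%) and the chromatin factor Jarid2 (0.44, 38.2% and 25.0%), each per the authors' deposited table.

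Markers of neighbouring cell types were present in the sheet and some differed between the groups. Of 28 enterocyte genes 19 were listed, 7 past the fold lower and 0 higher, or 36.8% lower against 33.3% of the listed granin genes and 6.47% of all genes. Their detection shares summed to 888 percentage points in group 1 and 980 in group 2. Over all 5287 genes the sums were 91459 and 109432 points, a larger relative gap than for the enterocyte genes. Reg3b and Fabp6 were detected in 100% of cells of both groups in the authors' deposited table, at 0.10 and -0.15, while Sis (-0.51, 38.2% of group 1 and 67.5% of group 2), Anpep (-0.47) and Krt20 (-0.44) were lower. Of 21 goblet genes 13 were listed, 2 lower (Agr2 and Ceacam10) and 1 higher (Tff3), with summed shares of 453 points in group 1 and 518 in group 2. Muc2 was in 23.5% and 30.0% of cells in the authors' deposited table. Paneth genes had 5 of 18 listed and 1 lower (Defa24), tuft genes 3 of 17 and none past the fold, stem genes 7 of 16 and 1 higher (Olfm4), proliferation genes 6 of 24 and none past the fold. Of 17 stromal, neuronal and glial genes only Ret and Pecam1 were listed, neither past the fold, and of 21 immune genes 0 were listed. The part of enterocyte RNA in the endocrine values was not tested.

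General cell functions differed in direction. For comparison, 2.23% of all genes were past the fold higher and 6.47% lower. Among genes of at least 20% mean detection that do not mark cluster 6, these shares were 5.11% and 10.8%. Cytosolic ribosomal protein genes had 18 of 74 members past the fold higher and 0 lower, with a median of 0.12. Detection was lower in group 1 for 52 of the 74 (70.3%), near the share over all genes, 3561 of 5287 (67.4%). Rpl32 stood at 0.44, with 76.5% of group 1 and 72.5% of group 2, and Rpl37a at 0.40, with 91.2% and 77.5%, per the authors' deposited table. Nuclear genes of oxidative phosphorylation had 9 of 83 higher and 3 lower (16 and 1 from the median of all genes), with a list median of 0.02. Their 10.8% higher lay between the 3.15% of non-marker genes at 20% to 40% mean detection and the 10.9% at 40% to 70%. Atp5mpl was at 0.46 and Ndufb1-ps at 0.40 in the authors' deposited table. Mitochondrially encoded transcripts had 0 higher and 2 lower of 14 (2 and 2 from the median of all genes). The low ones were mt-Nd6 at -0.43 and mt-Rnr2 at -0.34 in the authors' deposited table. Heat shock genes had 3 of 10 higher and 0 lower, but only 1 higher among genes detected in both groups, and the list median, 0.08, was -0.04 among genes of at least 20% mean detection. The 3 were Hspe1 at 0.34, and the inducible Hspa1a and Hspa1b, found in 20.6% and 17.6% of group 1 cells and listed at 0 in group 2, by the authors' deposited table. The last 2 genes are near-identical copies, so reads may be split between them. Immediate early genes had 4 of 15 lower (26.7%) and 0 higher (2 lower from the median of all genes). Of these 15 genes 9 mark cluster 6, and 30.5% of all cluster 6 markers were lower. The lowest were Btg2 (-0.43, 47.1% of group 1 and 57.5% of group 2) and Junb (-0.33, 44.1% and 62.5%) in the authors' deposited table. Of 20 listed genes of endoplasmic reticulum folding, 1 was higher (Txndc5 at 0.33) and 1 lower (Ddit3 at -0.27) in the authors' deposited table, with a list median of -0.01 (3 higher and 0 lower from the median of all genes). Class II antigen presentation genes had 2 of 5 lower, H2-Aa at -0.31 and H2-Ab1 at -0.29 in the authors' deposited table (1 from the median of all genes), and 0 higher.

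**Figure D5:**
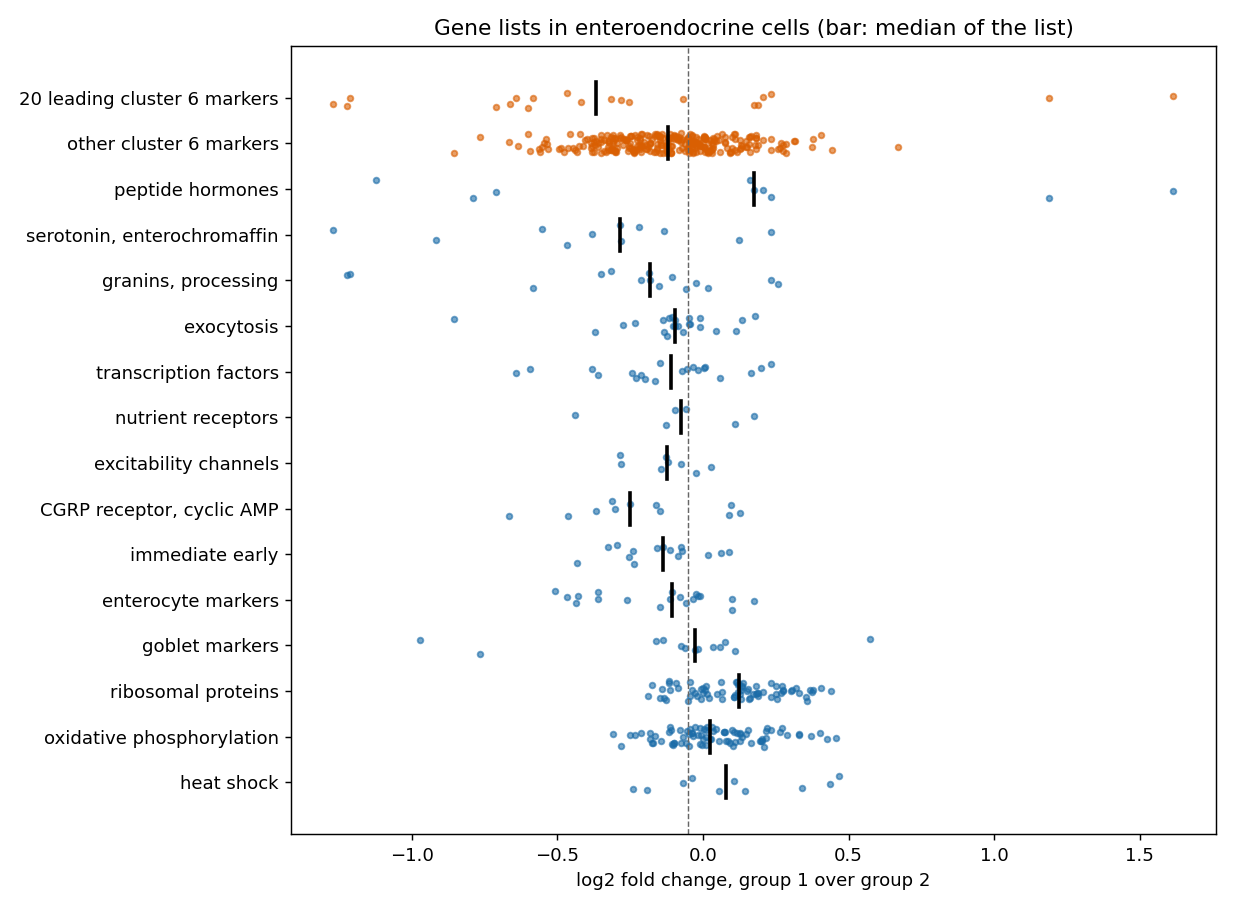
Authors' log2 fold change, group 1 over group 2, of every listed member of 16 gene groups in enteroendocrine cells, cluster 6 markers in the upper 2 rows; black bars are medians, the dashed line is the median of all 5287 genes (-0.05), and genes listed at 0 in 1 group are included. Serotonin genes have the lowest median of the endocrine lists (-0.29) and peptide hormones the highest (0.17), with members from -1.12 to 1.62. The row named for the CGRP receptor and cyclic AMP holds no receptor gene.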

How the data were processed

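Ileal epithelial cells of 1 pooled sample per genotype were sequenced by inDrops. Cell Ranger, Seurat, DESeq2 1.30.1 and the build mm10 appear in the submitters' processing notes without roles. Cell filters, doublet handling and cell type assignment are not stated there. Per the file headers, the authors' tables hold log2 fold changes and the fraction of cells detecting a gene on each side of a comparison, printed here as percent. Finite log2 values at a deposited share of 0 show an offset of unknown size, which compresses weakly detected genes. Deposited sheets list genes at 10% or more in at least 1 group, so a gene may pass through its higher group alone. Marker rows start at a log2 fold change of 0.25 and 25% detection. The authors' p-values treat cells as replicates and were not used. Depth is not stated, and cells are not replicates of a genotype, so no interval is given.

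Counts past a log2 fold change of 0.25, medians of 24 gene lists and overlaps by gene identifier were computed with Python 3.11.15 and pandas 2.3.3. Named by rule were the 5 identity markers, 20 leading markers, 12 highest and 12 lowest fold changes at or above the median detection (13.6%), 5 widest detection differences each way, all listed hormone, serotonin, granule, factor and receptor genes, and up to 4 genes per other list, except for items not reported here. Others were chosen after their values were seen. Members and lists were chosen with earlier results of these data known. Positions are from RefSeq for GRCm38.p6, the assembly behind mm10.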

Additional observations from a re-analysis of the deposited data

How the results depend on the processing

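No paired analysis was possible because each genotype had 1 sample, and for the same reason no replicate could be left out. Raising the fold to 0.5 left 7 genes higher and 33 lower in group 1, of which 3 and 21 were cluster 6 markers. Lowering it to 0.1 gave 850 and 1841 genes, with 48 and 171 markers. Measured from the median of all genes, 265 genes were higher and 200 lower, against 118 and 342 from 0. Of the cluster 6 markers, 127 had a log2 fold change over other cells of at least 0.5 and 191 marked no other cluster. A detection floor of 20%, leaving out genes at 0 in either group, and means in place of medians kept all counts of the sheet and of the markers within 1.5 times, and their medians within 0.1. For single lists 220 values stayed within these limits and 77 moved beyond them, 34 of them with the fold of 0.1, 21 with 0.5 and 13 with the other zero point. Detection steps of 2.5 to 2.9 points limit what can be read from any single gene.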

Other observations

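Mt-Co2 and the predicted gene Gm28661 shared a log2 fold change of -0.06 and detection shares of 91.2% in group 1 and 65% in group 2 by the authors' deposited table. The cause was not tested, and both genes were chosen after their values were seen.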
